A study of Homo sapiens with 48 samples.

Results

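The genes described here are 30 of the 29744 in the deposited tables, the enzymes and regulators through which cells make cholesterol and fatty acids. They were chosen by name from a list of this pathway, with earlier results of these data known. Of them, 7 act from acetyl-CoA to farnesyl diphosphate (HMGCS1, ACAT2, MVK, PMVK, MVD, IDI1, FDPS), 11 turn farnesyl diphosphate into sterols (FDFT1, SQLE, LSS, CYP51A1, TM7SF2, MSMO1, NSDHL, HSD17B7, EBP, SC5D, DHCR7), 7 make or desaturate fatty acids (ACLY, ACACA, FASN, SCD, ELOVL6, FADS1, FADS2), 3 regulate the pathway (SREBF1, SREBF2, INSIG1), and the last 2 are the sterol carrier STARD4 and the phosphatidate phosphatase LPIN1. All 30 had enough counts to be tested in every comparison.

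RNA was sequenced from IL11mNG fibroblasts, an immortalized human skin fibroblast line (CRL-4001) from which single-cell clones with a fluorescent reporter of IL11 had been sorted. The study perturbed GLIS3, a zinc finger transcription factor, and then gave the cells TGFβ and IL-1β, 10 ng/ml of each, for 0, 6, 12 or 24 h, so that the part played by GLIS3 in the inflammatory response of fibroblasts could be read. In the CRISPRko arm the cells carried Cas9 and either a non-targeting guide (H47_Ctrl) or a guide against GLIS3 (H47_KO). In the CRISPRa arm they carried dCas9-VP64, an activator that raises transcription where its guide binds, in the groups called VP64_Ctrl and VP64_A. Guides were delivered by lentivirus and drug-selected bulk populations were used, so each group is a mixture of cells that carry the guide. The study does not say whether both arms came from the same clone. Each of the 16 conditions had 3 libraries, 48 in all. The cytokines were added at staggered times and all cells were collected together, so time with the cytokines and time since the medium was changed cannot be told apart. In the labels of the CRISPRa arm, titles and descriptions disagree on which group is the control. The groups are called here by their descriptions, and the libraries described as VP64_A are the ones titled as controls.

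Cholesterol is built from acetyl-CoA through mevalonate, farnesyl diphosphate, squalene and lanosterol. When sterol in the endoplasmic reticulum is low, SCAP carries the transcription factors SREBP-1 and SREBP-2 (the products of SREBF1 and SREBF2) to the Golgi, where they are cut and released to the nucleus to switch on the genes of sterol and fatty acid synthesis. When sterol is high, INSIG proteins hold SCAP back, and INSIG1 is itself a target of the SREBPs. Cultured skin fibroblasts are a classical cell type for the study of this feedback, in which many genes of the pathway are known to respond to the supply of sterol.

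The libraries held 2321990 to 10661004 estimated counts, of which these 30 genes took 0.0963% to 0.21%. The fibroblast markers were present as labelled: all 10 fibroblast markers were expressed, with a summed level of 15833 to 33599 TPM (Salmon's length-scaled transcript abundance). This compares with 6.41 to 101 TPM for 5 epithelial, 0 to 0.615 TPM for 4 endothelial, 13.7 to 69.7 TPM for 5 leukocyte and 0 to 2.53 TPM for 5 adipocyte markers. Of the genes known to respond to these cytokines, IL6 was higher than at 0 h by 6.80 to 10.7 and IL11 by 1.79 to 5.04 on the log2 scale in all 12 contrasts. GLIS3 itself was at 0.144 to 1.64 CPM (counts scaled to the library size, adjusted by the trimmed mean of M values) in H47_KO and 1.45 to 6.47 CPM in H47_Ctrl. Its fall of 2.55 on the log2 scale passed the test at 0 h, with log2 differences of -1.80, -1.21 and -1.17 at 6, 12 and 24 h that did not pass (adjusted p = 0.0925, 0.507 and 0.383). Libraries whose description is VP64_A had 16.6 to 36.7 CPM of GLIS3 and those whose description is VP64_Ctrl had 1.91 to 6.31 CPM, so its level goes with the descriptions and against the titles. In 5 libraries the 50 most abundant genes took a share of the counts over 5 percentage points below that of the next library of the group. They were replicate 3 of VP64_Ctrl at 0 h (23.1%, against 32.6% and 34.9%), replicate 3 of H47_KO at 0 h (30.7%, against 39% and 39.3%) and at 24 h (31.4%, against 39% and 44.4%), replicate 1 of H47_Ctrl at 6 h (33.8%, against 40.9% and 42%) and replicate 2 of VP64_A at 12 h (36.6%, against 42% and 42.2%). Counts without all 5, an alternative added after the data were seen, are given beside the results. In bulk samples such as these, fewer cells of a type and less RNA per cell cannot be told apart.

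Of the 30 genes, 26 had a RefSeq promoter window (GRCh38.p14, 250 bases before to 50 after the start), and ACAT2, FASN, FDFT1 and SQLE had none. Below are the 250 bases before the start of 5 genes. They are shown because 2 of them rose in most contrasts with 0 h (INSIG1, chr7:155297628-155297877, plus strand, and STARD4, chr5:111512536-111512785, minus strand), 1 rose late (MSMO1, chr4:165327419-165327668, plus strand), 1 fell and recovered (SCD, chr10:100346983-100347232, plus strand) and 1 is the regulator with a match to the classical sterol response element (SREBF2, chr22:41832855-41833104, plus strand). Capitals mark CCAAT or its reverse complement ATTGG, the motif bound by NF-Y, and in SREBF2 also TCACCCCAC.
INSIG1: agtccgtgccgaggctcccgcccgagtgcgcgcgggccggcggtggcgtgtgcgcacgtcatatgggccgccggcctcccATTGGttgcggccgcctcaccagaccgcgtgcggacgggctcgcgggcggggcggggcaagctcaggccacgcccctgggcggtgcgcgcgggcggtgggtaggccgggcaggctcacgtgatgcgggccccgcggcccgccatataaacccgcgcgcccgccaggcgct
STARD4: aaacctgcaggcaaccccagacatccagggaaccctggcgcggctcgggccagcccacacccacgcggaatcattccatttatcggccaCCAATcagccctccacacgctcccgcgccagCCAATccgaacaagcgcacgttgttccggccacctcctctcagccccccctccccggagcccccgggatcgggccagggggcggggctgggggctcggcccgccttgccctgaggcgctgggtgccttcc
MSMO1: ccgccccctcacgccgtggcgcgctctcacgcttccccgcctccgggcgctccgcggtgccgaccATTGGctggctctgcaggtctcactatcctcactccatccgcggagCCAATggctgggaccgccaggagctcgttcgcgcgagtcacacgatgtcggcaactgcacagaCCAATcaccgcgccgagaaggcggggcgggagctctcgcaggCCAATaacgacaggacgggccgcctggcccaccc
SCD: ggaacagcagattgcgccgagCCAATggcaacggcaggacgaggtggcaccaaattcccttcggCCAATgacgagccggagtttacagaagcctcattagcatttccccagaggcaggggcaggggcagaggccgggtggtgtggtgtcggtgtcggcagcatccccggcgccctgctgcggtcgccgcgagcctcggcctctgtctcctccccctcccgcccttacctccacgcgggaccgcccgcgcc
SREBF2: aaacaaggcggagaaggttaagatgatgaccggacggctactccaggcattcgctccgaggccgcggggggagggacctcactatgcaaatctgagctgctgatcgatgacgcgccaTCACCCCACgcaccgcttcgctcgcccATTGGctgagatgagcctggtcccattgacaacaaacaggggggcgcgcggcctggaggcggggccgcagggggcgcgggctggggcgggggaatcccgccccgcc
CCAAT, searched on both strands of the 300-base window, was in 20 of the 26 promoters (76.9%) and in 39.8% of all 27058 genes with a window. GGGCGG, the core bound by SP1, was in 25 of 26 (96.2%) and in 48.2% of all genes. The core of the classical sterol response element, TCACCCCAC, was in 1 of 26 (3.85%), against 0.525% of all genes. The looser TCACNCCAC, which every match of the first also holds, was in 1 of 26, against 1.38% of all. Both matches are in SREBF2. The E-box CACGTG was in 3 of 26 (11.5%, against 8.72% of all) and TGGGGGGT in 0 of 26 (1.8% of all). These are letter matches in a fixed window, and they describe the promoters without showing that a factor binds there.

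Before the cytokines were added, the genes covered a wide range of levels per transcript length. In H47_Ctrl at 0 h the highest was FDPS, which makes farnesyl diphosphate, at 156 ± 20.3 TPM (SD, n = 3), followed by ACLY, the source of cytosolic acetyl-CoA, at 95.8 ± 10.0 TPM and FDFT1, squalene synthase, at 79.4 ± 6.32 TPM. INSIG1 was at 8.55 ± 1.05 TPM. HMGCS1, the cytosolic HMG-CoA synthase, was next to lowest at 2.27 ± 0.402 TPM, and SREBF1 was lowest at 1.25 ± 0.121 TPM. In VP64_Ctrl at 0 h the first 4 places were held by FDPS, FDFT1, ACLY and EBP, at 210 ± 31.5, 121 ± 38, 106 ± 14.7 and 72.8 ± 28.5 TPM. FDPS lay above the other 3 in every library, while the libraries of FDFT1 and ACLY and those of ACLY and EBP overlapped.

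**Figure D1:**
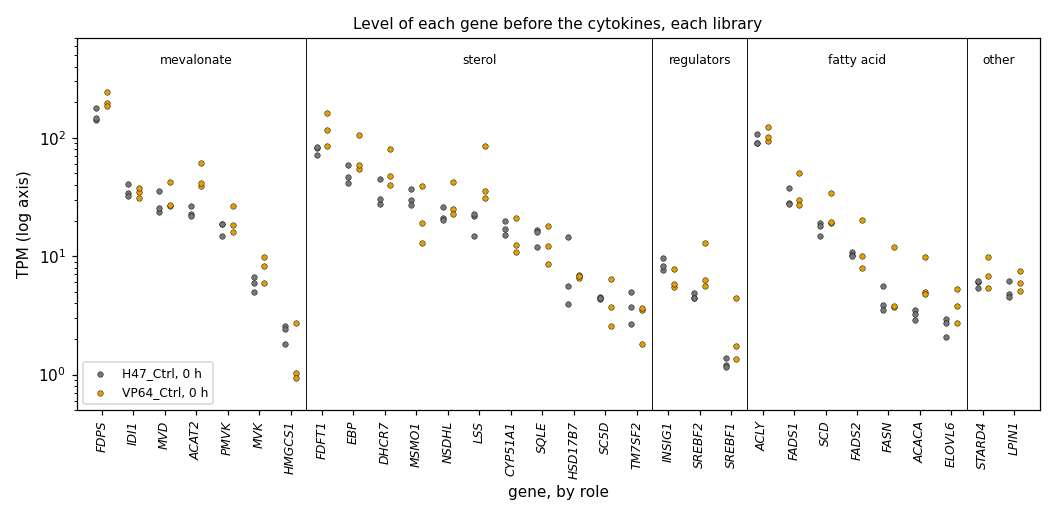
Level of the 30 genes at 0 h in H47_Ctrl and VP64_Ctrl, in TPM on a log axis, with 1 point per library (n = 3 per group). FDPS was highest in both groups (156 TPM in H47_Ctrl) and SREBF1 was lowest in H47_Ctrl (1.25 TPM).

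Over the time with TGFβ and IL-1β these genes changed in both directions in every group of cells, and more of the calls were rises at 24 h than at 6 and 12 h. A gene was called where the Benjamini-Hochberg adjusted p of edgeR's quasi-likelihood test, taken across all tested genes, was under 0.05. Pooled over the 4 groups of cells, 16 of 120 gene and group pairs rose at 6 h (13.3%, against 12.8% of the pairs of all genes) and 19 fell (15.8% against 8.74%). At 12 h 15 rose (12.5% against 13.4%) and 20 fell (16.7% against 9.97%), and at 24 h 26 rose (21.7% against 8.75%) and 3 fell (2.5% against 5.16%). In H47_Ctrl at 6 h, 4 of the 30 genes rose (13.3%, against 10.3% of all genes tested) and 3 fell (10% against 5.6%). At 12 h 3 rose (10% against 11.3%) and 4 fell (13.3% against 8.27%), and at 24 h 6 rose (20% against 6.53%) and 0 fell (3.73% of all genes). In H47_KO 5 rose (16.7% against 13.2%) and 4 fell (13.3% against 10.8%) at 6 h. At 12 h 5 rose (16.7% against 14.4%) and 7 fell (23.3% against 13%), and at 24 h 7 rose (23.3% against 9.07%) and 1 fell (3.33% against 6.78%). In VP64_Ctrl 4 rose (13.3% against 16.2%) and 6 fell (20% against 12.6%) at 6 h. At 12 h 3 rose (10% against 15.3%) and 5 fell (16.7% against 11.5%), and at 24 h 7 rose (23.3% against 10.4%) and 1 fell (3.33% against 5.57%). In VP64_A 3 rose (10% against 11.4%) and 6 fell (20% against 5.93%) at 6 h. At 12 h 4 rose (13.3% against 12.6%) and 4 fell (13.3% against 7.1%), and at 24 h 6 rose (20% against 9%) and 1 fell (3.33% against 4.55%). The share that rose at 6 and 12 h was near that of all genes or below it, and the share that rose at 24 h was above it in each group. On log2(TPM + 1), tested with limma, the 24 h rises were 0, 2, 2 and 2 in H47_Ctrl, H47_KO, VP64_Ctrl and VP64_A (0%, 6.67%, 6.67% and 6.67%, against 2.53%, 5.51%, 4% and 3.86% of all genes). Without the 5 libraries of lower share, the rises and falls in H47_Ctrl were 4 and 3, 3 and 5, and 6 and 0 at 6, 12 and 24 h, and in H47_KO 5 and 5, 4 and 9, and 7 and 0. In VP64_Ctrl they were 4 and 4, 2 and 4, and 7 and 0, and in VP64_A 3 and 6, 4 and 4, and 6 and 1. The 3 contrasts of a group share its 0 h libraries, so their counts are not independent of each other. In the pooled counts a gene can count in each of the 4 groups of cells, so those pairs are not independent either.

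The median log2 change of the 30 genes was higher at 24 h than at 6 and 12 h in each group. It was -0.21, -0.18 and 0.12 at 6, 12 and 24 h in H47_Ctrl, where the median of all genes was -0.03, -0.01 and 0.01, and -0.27, -0.26 and 0.06 in H47_KO (all genes -0.10, -0.05 and 0.02). In VP64_Ctrl it was -0.26, -0.24 and 0.15, and in VP64_A it was -0.10, 0.04 and 0.19, with all genes between -0.05 and 0.01 in both. The medians on log2(TPM + 1) were also highest at 24 h in each group, at 0.08, 0.10, 0.11 and 0.12 above the median of all genes in H47_Ctrl, H47_KO, VP64_Ctrl and VP64_A. By step of the pathway, and beside the same pooled shares of all genes, the enzymes up to farnesyl diphosphate gave 0 rises and 6 falls (21.4%) among 28 pairs at 6 h. They gave 0 and 4 (14.3%) at 12 h, and 4 (14.3%) and 1 (3.57%) at 24 h. The sterol enzymes gave 5 rises (11.4%) and 4 falls (9.09%) among 44 pairs at 6 h, 6 of each (13.6%) at 12 h, and 9 (20.5%) and 0 at 24 h. Of the fatty acid genes 3 rose (10.7%) and 8 fell (28.6%) among 28 pairs at both 6 and 12 h, and 4 rose (14.3%) and 2 fell (7.14%) at 24 h. A gene counts once for each group of cells, so these pairs are not independent and some shares rest on few genes. SQLE gave 4 of the sterol enzyme rises at 6 h and 4 at 12 h. MVK gave 4 of the 6 falls up to farnesyl diphosphate at 6 h, and IDI1 gave the 4 rises there at 24 h. ACLY gave the 3 fatty acid rises at 6 and at 12 h, and FADS1 the 4 at 24 h.

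**Figure D2:**
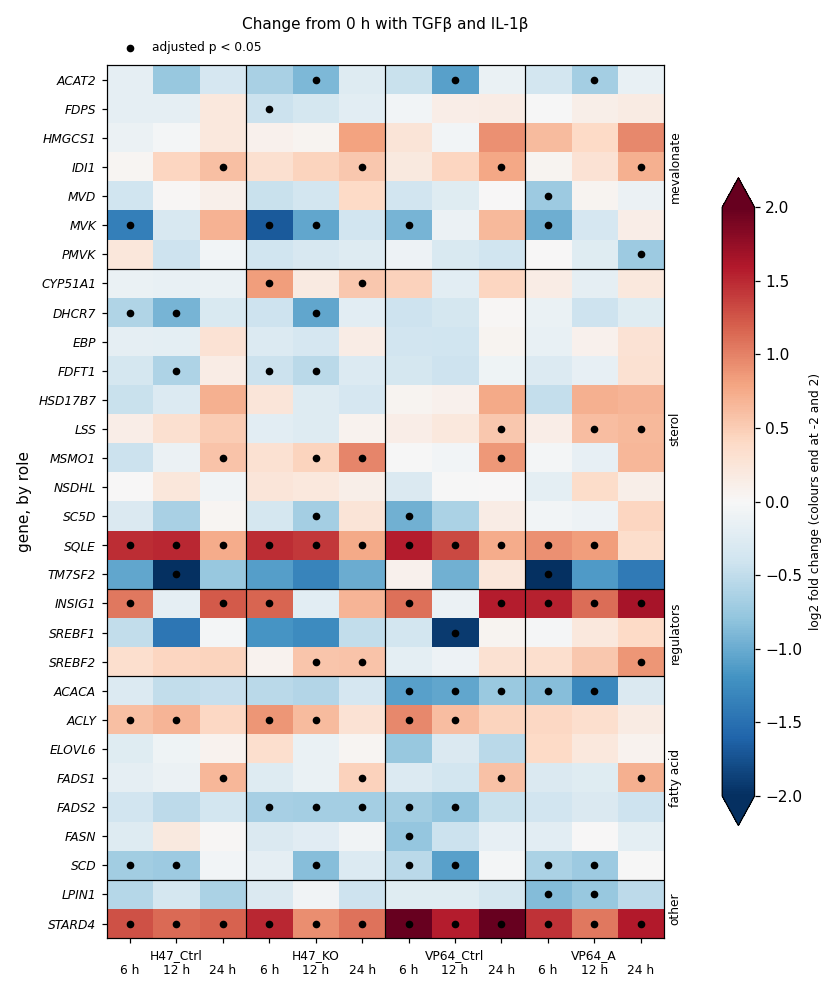
Log2 change from 0 h of the 30 genes (rows) at 6, 12 and 24 h in each of the 4 groups of cells (columns), with a dot where the adjusted p was under 0.05. STARD4 and SQLE were higher at 6 and 12 h in every group, SCD and MVK were mostly lower, and more genes were higher at 24 h.

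These counts depend on how the libraries were scaled and tested. The alternatives on log2 TPM change the scaling, the adjustment for length and the test together, and the part of each was not tested. On log2(TPM + 1) the median of all genes itself shifted from 0 h by -0.65 to 0.13 over the 12 time contrasts. The number of the 30 genes that rose was lower than in edgeR in each of the 12 contrasts, and the number that fell was higher in 6, equal in 3 and lower in 3. In H47_Ctrl 2 rose and 1 fell at 6 h, 1 and 4 at 12 h (13.3% fell, against 8.03% of all genes on that scale) and 0 and 0 at 24 h. In H47_KO 2 rose and 11 fell at 6 h (36.7% fell, against 26.1%), 1 and 8 at 12 h (26.7% against 12.3%) and 2 and 0 at 24 h. In VP64_Ctrl 2 rose and 21 fell at 6 h (70% fell, against 51.8%), 1 and 19 at 12 h (63.3% against 38.5%) and 2 and 1 at 24 h (3.33% against 14.3%). In VP64_A 2 rose and 4 fell at 6 h (13.3% fell, against 5.61%), 0 and 6 at 12 h (20% against 8.27%) and 2 and 2 at 24 h (6.67% against 6.69%). With a pseudocount of 0.1 the rises and falls were 1 and 4 in H47_Ctrl at 12 h, and 2 and 9, 1 and 6, and 2 and 0 in H47_KO. They were 2 and 20, 1 and 18, and 2 and 1 in VP64_Ctrl, and 0 and 5 and then 2 and 1 in VP64_A at 12 and 24 h. In H47_KO at 6 h DESeq2 gave 5 rises and 1 fall, and edgeR with DESeq2's size factors 5 and 2. Of the 57 rises, 39 passed with any 1 library of the contrast left out and 17 passed on log2(TPM + 1), and of the 42 falls 20 and 36 did. The rises that passed on log2(TPM + 1) were 7 of 11 of SQLE, 6 of 12 of STARD4, 3 of 8 of INSIG1 and 1 of 4 of MSMO1. None did of the 6 of ACLY, the 4 each of FADS1 and IDI1, the 3 each of LSS and SREBF2, or the 2 of CYP51A1. Each change below is therefore relative to the scaling of the library, with log2 fold changes given ± standard error.

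STARD4, which carries cholesterol between membranes and is a known SREBP-2 target, rose in all 12 contrasts. In H47_Ctrl its libraries were at 10.7, 10.6 and 6.75 CPM at 0 h, 26.4, 24.3 and 18.4 CPM at 6 h, 19.1, 26.8 and 16.7 CPM at 12 h and 19.6, 21.5 and 24.0 CPM at 24 h. No treated library of that group was as low as any at 0 h. The change was 1.28 ± 0.25 at 6 h (adjusted p = 0.000348), 1.13 ± 0.27 at 12 h (0.00199) and 1.18 ± 0.26 at 24 h (0.00188). In VP64_Ctrl the levels went from 6.45, 5.05 and 6.14 CPM at 0 h to 26.9, 32 and 37.1 CPM at 6 h, 19.3, 15.5 and 17.3 CPM at 12 h and 38.3, 39.5 and 12.9 CPM at 24 h. At each time these were the largest rises of the gene among the 4 groups, 2.42 ± 0.30 at 6 h (adjusted p = 1.43e-07), 1.56 ± 0.30 at 12 h and 2.33 ± 0.29 at 24 h, although 1 of the 3 libraries at 24 h stood well below the others. In H47_KO the change was 1.50, 0.93 and 1.08, and in VP64_A it was 1.44, 1.06 and 1.58. The 12 h rises of these groups rested on few libraries: in H47_KO it was 0.72 and no longer passed without replicate 2 at 0 h, and in VP64_A it was 0.93 without replicate 1 at 0 h and 0.86 without replicate 1 at 12 h. STARD4 lies at chr5:111496033-111512590 on the minus strand and overlaps an antisense gene, STARD4-AS1, whose reads cannot be told apart from its own, since the counting strand is not given in the sources used here.

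SQLE, squalene epoxidase, the first oxygen-requiring step of sterol synthesis, rose in 11 of 12 contrasts, with its highest levels at 6 and 12 h. In H47_Ctrl it was at 28.2, 28.8 and 21.3 CPM at 0 h, 77.9, 68.7 and 74.4 CPM at 6 h, 80.5, 65.4 and 78.7 CPM at 12 h and 46.8, 46.7 and 38.8 CPM at 24 h. All treated libraries lay above those at 0 h, and the 24 h libraries lay between these and the ones at 6 and 12 h. The change was 1.48 ± 0.16 at 6 h (adjusted p = 9.49e-09), 1.50 ± 0.16 at 12 h (1.17e-08) and 0.74 ± 0.16 at 24 h (0.00216), and in H47_KO it was 1.48, 1.42 and 0.76. In VP64_Ctrl SQLE went from 19.5, 15.2 and 19 CPM to 48.8, 60.0 and 51.0 CPM at 6 h, 39.3, 51.4 and 42.9 CPM at 12 h and 28.6, 33.4 and 28.1 CPM at 24 h, a change of 1.58 ± 0.15 (adjusted p = 8.41e-10), 1.32 ± 0.15 and 0.74 ± 0.15. The rise was smaller in VP64_A, 0.92 and 0.84 at 6 and 12 h, and the value of 0.35 at 24 h did not pass (adjusted p = 0.137). All 11 rises passed with any 1 library left out, and 7 of the 11 passed on log2(TPM + 1).

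INSIG1, the sterol-dependent brake on SREBP processing, was high at 6 and 24 h and back near its starting level at 12 h in 3 of the 4 groups. In H47_Ctrl it was at 13.2, 15 and 17.8 CPM at 0 h, 31.8, 32 and 30.9 CPM at 6 h, 20.2, 12.1 and 7.98 CPM at 12 h and 35.8, 37.4 and 33.3 CPM at 24 h. The libraries at 12 h overlapped those at 0 h, while those at 6 and 24 h were all higher. The change was 1.06 ± 0.27 at 6 h (adjusted p = 0.00599), -0.18 ± 0.31 at 12 h (0.748) and 1.22 ± 0.28 at 24 h (0.00272). In VP64_Ctrl, in other cells, the levels were 8.93, 10.3 and 8.38 CPM, then 16.3, 24.2 and 19.7 CPM, then 6.91, 11.1 and 7.11 CPM, then 25.6, 35.3 and 22.6 CPM. The same order of times was seen there, with changes of 1.11 ± 0.22 (adjusted p = 0.000328), -0.12 ± 0.24 (0.738) and 1.57 ± 0.21 (1.37e-06). In H47_KO the changes were 1.16 ± 0.28 (0.0023), -0.21 ± 0.28 (0.642) and 0.68 ± 0.27 (0.0826), with 1 library at 24 h, at 15.1 CPM, no higher than those at 0 h. That library, replicate 3, is 1 of the 5 of lower share named above, and without it the 24 h change was 1.02 ± 0.25 and passed (adjusted p = 0.00474). VP64_A kept INSIG1 high at 12 h: its libraries were at 8.59, 7.29 and 8.73 CPM at 0 h, 27.5, 26.3 and 17.9 CPM at 6 h, 21.5, 16 and 16.9 CPM at 12 h and 23.8, 30.5 and 23.7 CPM at 24 h. The 3 changes were 1.54 ± 0.22, 1.12 ± 0.23 and 1.65 ± 0.22, and all passed. The 8 rises of INSIG1 passed with any 1 library left out, and 3 of the 8 passed on log2(TPM + 1). Its gene lies at chr7:155297776-155310235 on the plus strand and overlaps no other gene in the table.

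**Figure D3:**
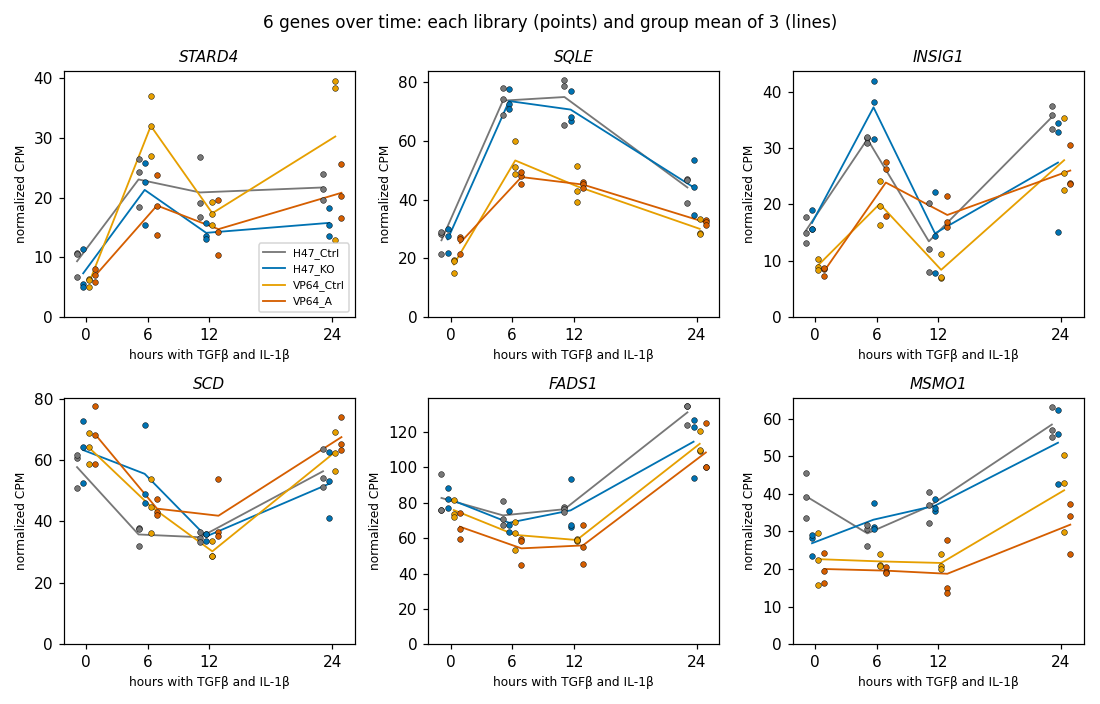
CPM of STARD4, SQLE, INSIG1, SCD, FADS1 and MSMO1 against hours with TGFβ and IL-1β, with 1 point per library and lines through the means of 3 libraries, by group of cells. INSIG1 was near its 0 h level at 12 h in all groups but VP64_A, SCD was lower at 12 h than at 0 h in all groups, and FADS1 rose at 24 h. MSMO1 was chosen for the plot after its values were seen.

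Of the genes that encode the SREBPs, SREBF2 rose in 3 contrasts and SREBF1 fell in 1. SREBF2, whose product mainly drives sterol synthesis, was at 13.6, 16.1 and 14.9 CPM in H47_Ctrl at 0 h, 17.7, 18.9 and 19.6 CPM at 6 h, 18.4, 22.6 and 19.2 CPM at 12 h and 22.5, 18.7 and 19.3 CPM at 24 h. All treated libraries were above those at 0 h, yet the changes of 0.33, 0.44 and 0.45 did not pass (adjusted p = 0.313, 0.153 and 0.199). In VP64_A it went from 14.8, 14 and 11 CPM at 0 h to 25.6, 26.8 and 22.3 CPM at 24 h, a rise of 0.88 ± 0.21 (adjusted p = 0.00298). In VP64_Ctrl its means were 20.5, 17.7, 18.8 and 25.1 CPM at 0, 6, 12 and 24 h, with no call. The 0 h libraries of VP64_Ctrl, at 18.1 to 25 CPM, lay above those of VP64_A, though that difference did not pass. In H47_KO SREBF2 rose by 0.56 at 12 h and 0.57 at 24 h, and each call was lost without any of 4 libraries. These were replicates 1 and 3 at 0 h, replicates 2 and 3 at 12 h and replicates 1 and 2 at 24 h, with lowest values of 0.43 and 0.42. SREBF1, which mainly drives fatty acid synthesis, had few counts, 0 to 70 per library. It was at 4.71, 3.81 and 7.64 CPM in VP64_Ctrl at 0 h, 4.30, 5.05 and 2.32 CPM at 6 h, 0.395, 1.28 and 2.84 CPM at 12 h and 6.13, 3.89 and 6.13 CPM at 24 h. The 12 h libraries were below all those at 0 h, and the fall of 1.91 on the log2 scale (standard error 0.49, adjusted p = 0.00349) was the only change of SREBF1 that passed. In H47_Ctrl its levels were 3.24, 3.38 and 4.05 CPM at 0 h, 4.60, 0.995 and 1.47 CPM at 6 h, 1.47, 2.29 and 0 CPM at 12 h and 2.47, 3.74 and 4.28 CPM at 24 h. The 12 h value there, -1.44 ± 0.61, and that in H47_KO, -1.25 ± 0.48, did not pass (adjusted p = 0.0947 and 0.0508).

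In the arm from acetyl-CoA to farnesyl diphosphate, MVK and ACAT2 fell early and IDI1 rose late. MVK, mevalonate kinase, was low, with 5 to 105 counts per library. In H47_Ctrl it was at 6.08, 7.24 and 5.40 CPM at 0 h, 3.16, 2.59 and 1.23 CPM at 6 h, 3.68, 5.89 and 5.44 CPM at 12 h and 10.7, 9.35 and 10.5 CPM at 24 h. The 6 h libraries were below all those at 0 h and the 24 h libraries above. The 6 h change of -1.37 ± 0.32 passed (adjusted p = 0.00209), while the 24 h change of 0.70 ± 0.29 did not (0.132). MVK also fell at 6 h in H47_KO, by 1.68 on the log2 scale (adjusted p = 0.00027), in VP64_Ctrl by 0.93 (0.0377) and in VP64_A by 0.98 (0.0292), and at 12 h in H47_KO by 1.03. The VP64_Ctrl fall was lost without replicate 2 at 0 h (-0.72) or replicate 1 or 3 at 6 h (-0.61 and -0.97), and the VP64_A fall without replicate 2 at 0 h (-0.62) or replicate 2 at 6 h (-0.66). MVK overlaps MMAB on the other strand, so its counts may hold reads of that gene. ACAT2, the cytosolic thiolase that joins acetyl-CoA units, fell at 12 h in VP64_Ctrl (-1.09 ± 0.19, adjusted p = 3.35e-05), in VP64_A (-0.68 ± 0.18, 0.00525) and in H47_KO (-0.89 ± 0.26, 0.0111), and was at -0.76 ± 0.28 in H47_Ctrl, which did not pass (0.0515). The H47_KO call was lost without replicate 1 at 0 h (-0.77) or replicate 3 at 12 h (-0.78). IDI1, which isomerizes isopentenyl diphosphate, rose at 24 h in all 4 groups, by 0.61, 0.53, 0.77 and 0.70 in H47_Ctrl, H47_KO, VP64_Ctrl and VP64_A (adjusted p = 0.0181, 0.0261, 0.00695 and 0.0168), and 0 of the 4 passed on log2(TPM + 1). Each of these calls was also lost with some single libraries left out, with values from 0.49 to 0.84. These were replicate 2 or 3 at 0 h or replicate 2 at 24 h in H47_Ctrl and replicate 2 or 3 at 0 h or replicate 1 at 24 h in H47_KO. They were replicate 3 at 0 h in VP64_Ctrl and replicate 2 at 0 h or replicate 3 at 24 h in VP64_A. FDPS, PMVK and MVD each fell in 1 of 12 contrasts, by 0.43 in H47_KO at 6 h, 0.72 in VP64_A at 24 h and 0.73 in VP64_A at 6 h. The FDPS call was lost without any 1 of the libraries but replicate 3 at 0 h (-0.54 to -0.31). The PMVK call was lost without any 1 of its 6 libraries (-0.79 to -0.68), and the MVD call without replicate 3 at 0 h or replicate 1 at 6 h (-0.89 to -0.61). HMGCS1 passed in none, with its highest values at 24 h, 0.80 ± 0.36 in H47_KO, 0.91 ± 0.35 in VP64_Ctrl and 0.97 ± 0.36 in VP64_A (adjusted p = 0.139, 0.0689 and 0.0778).

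Apart from SQLE, the sterol enzymes divided. DHCR7, which reduces 7-dehydrocholesterol to cholesterol, fell in the CRISPRko arm. In H47_Ctrl it was at 67.1, 43.9 and 48.6 CPM at 0 h, 43.5, 33.2 and 28 CPM at 6 h, 23.5, 27.5 and 33 CPM at 12 h and 45.1, 44.9 and 39.5 CPM at 24 h. The 12 h libraries were below all at 0 h. The change was -0.60 ± 0.19 at 6 h (adjusted p = 0.0287), -0.93 ± 0.21 at 12 h (0.00108) and -0.31 ± 0.20 at 24 h (0.402), and in H47_KO the 12 h change was -1.03 ± 0.19 (0.000105). The 6 h call in H47_Ctrl was lost without replicate 1 at 0 h (-0.39), replicate 2 at 6 h (-0.56) or replicate 3 at 6 h (-0.45). In VP64_Ctrl the changes of -0.41, -0.35 and 0.02 and in VP64_A those of -0.14, -0.41 and -0.24 did not pass. MSMO1, the C-4 methylsterol oxidase, rose at 24 h by 0.56 ± 0.15 in H47_Ctrl, 0.98 ± 0.15 in H47_KO (adjusted p = 1.58e-05) and 0.86 ± 0.23 in VP64_Ctrl, and was at 0.66 ± 0.23 in VP64_A (0.057). It also rose by 0.45 ± 0.16 at 12 h in H47_KO. Of its 4 calls only the H47_KO rise at 24 h passed with any 1 library left out. The H47_Ctrl rise was lost without replicate 2 or 3 at 0 h or replicate 1 at 24 h (0.48 to 0.68 over the 6 omissions). The VP64_Ctrl rise was lost without replicate 2 at 0 h or replicate 1 at 24 h (0.64 to 1.07), and the 12 h rise without replicate 1 or 2 at 0 h or replicate 2 at 12 h (0.37 to 0.54). LSS, lanosterol synthase, rose at 24 h in VP64_Ctrl (0.53) and at 12 and 24 h in VP64_A (0.61 and 0.64). On log2(TPM + 1) the VP64_Ctrl value of LSS was below 0. CYP51A1, lanosterol demethylase, rose in H47_KO at 6 h (0.84 ± 0.17, adjusted p = 0.000334) and 24 h (0.54 ± 0.16, 0.0199). The LSS call in VP64_Ctrl passed only without replicate 3 at 0 h (0.41 to 0.65). Those in VP64_A were lost without replicate 1 or 3 at 0 h or replicate 3 of the later time (0.51 to 0.76 and 0.54 to 0.78), and the 24 h call of CYP51A1 was lost without replicate 2 at 0 h or replicate 3 at 24 h (0.45 to 0.63). FDFT1 fell at 12 h in H47_Ctrl (-0.61 ± 0.16, adjusted p = 0.00514) and at 6 and 12 h in H47_KO (-0.44 and -0.54). The 6 h call was lost without any 1 library but replicate 3 at 0 h (-0.53 to -0.33), and the 12 h call in H47_KO without replicate 1 at 0 h or replicate 2 at 12 h (-0.69 to -0.43). SC5D, the C-5 desaturase, fell in VP64_Ctrl at 6 h (-0.96 ± 0.27, adjusted p = 0.00833) and in H47_KO at 12 h (-0.67 ± 0.25, 0.0398). The latter call was lost without replicate 1 or 2 at 0 h or replicate 1 or 2 at 12 h (-0.81 to -0.54). TM7SF2, a sterol C-14 reductase with 0 to 36 counts per library, fell by 2.17 in H47_Ctrl at 12 h and by 2.04 in VP64_A at 6 h. These calls were lost without replicate 1 at 0 h or at 12 h (-2.59 to -1.63) and without replicate 2 at 0 h or replicate 2 or 3 at 6 h (-2.77 to -1.74). EBP, NSDHL and HSD17B7 passed in none of the 12 contrasts.

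The fatty acid genes held both an early rise and an early fall. SCD, the desaturase that makes oleate from stearate, fell in 7 of 12 contrasts. In H47_Ctrl it was at 60.8, 61.5 and 50.8 CPM at 0 h, 38, 37.4 and 31.9 CPM at 6 h, 34.6, 33.4 and 36.6 CPM at 12 h and 51.2, 63.6 and 54.2 CPM at 24 h. The 6 and 12 h libraries lay below all at 0 h and the 24 h libraries overlapped them. The change was -0.69 ± 0.17 at 6 h (adjusted p = 0.00308), -0.73 ± 0.17 at 12 h (0.00228) and -0.05 ± 0.17 at 24 h (0.93). In VP64_Ctrl SCD went from 58.6, 64.3 and 68.9 CPM to 36.1, 44.7 and 53.9 CPM at 6 h, 28.6, 28.6 and 33.5 CPM at 12 h and 56.5, 69 and 62.4 CPM at 24 h. That gave -0.54 ± 0.16 at 6 h (adjusted p = 0.0132), which was -0.38 and no longer passed without replicate 1 at 6 h, -1.08 ± 0.17 at 12 h (6.4e-06) and -0.03 ± 0.16 at 24 h. In VP64_A the changes were -0.63, -0.73 and -0.01, the first 2 of which passed, and in H47_KO they were -0.18, -0.85 and -0.28, of which the 12 h fall passed (0.000205).

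FADS1, the delta-5 desaturase of polyunsaturated fatty acids, rose at 24 h in all 4 groups. In H47_Ctrl it was at 96.1, 76.0 and 76.2 CPM at 0 h, 80.8, 67.3 and 70.7 CPM at 6 h, 77.6, 76.5 and 75.1 CPM at 12 h and 124, 135 and 135 CPM at 24 h, so that the 24 h libraries were above all others. In VP64_Ctrl the 24 h libraries were at 110, 110 and 121 CPM, above 73.9, 72.2 and 81.6 CPM at 0 h, 63.2, 69.1 and 53.3 CPM at 6 h and 59.6, 58.5 and 58.8 CPM at 12 h. The 24 h change was 0.66 ± 0.15 in H47_Ctrl (adjusted p = 0.0025), 0.47 ± 0.15 in H47_KO (0.0261), 0.58 ± 0.15 in VP64_Ctrl (0.00563) and 0.71 ± 0.15 in VP64_A (0.000894). Tested on log2(TPM + 1), 0 of these 4 rises passed. The H47_KO call was lost without replicate 2 (0.42) or 3 (0.47) at 0 h, or replicate 1 (0.41) or 2 (0.42) at 24 h. FADS2, the delta-6 desaturase whose gene overlaps FADS1 on the opposite strand, fell in 5 contrasts, by 0.66, 0.68 and 0.68 in H47_KO at 6, 12 and 24 h and by 0.70 and 0.79 in VP64_Ctrl at 6 and 12 h. Each of these calls was lost without some single libraries (values of -0.93 to -0.42). In H47_KO these were all but replicate 3 at 6 h for the 6 h call, replicate 1 at 0 h or replicate 1 or 2 at 12 h for the 12 h call and replicate 1 or 2 at 0 h or replicate 3 at 24 h for the 24 h call. In VP64_Ctrl they were replicate 3 at 0 h or replicate 1 or 2 at 6 h, and replicate 3 at 0 h or at 12 h.

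ACLY rose at 6 and 12 h in H47_Ctrl (0.60 and 0.68), H47_KO (0.88 and 0.64) and VP64_Ctrl (0.96 ± 0.18, adjusted p = 0.000121, and 0.61). In VP64_A its values of 0.42 and 0.34 did not pass. The H47_Ctrl rise at 6 h was lost without replicate 2 or 3 at 0 or 6 h (lowest value 0.55). The VP64_Ctrl rise at 12 h was lost without replicate 3 at 0 h or at 12 h (lowest value 0.48), and on log2(TPM + 1) the latter was slightly below 0. ACACA, the carboxylase that commits acetyl-CoA to fatty acids, fell in the CRISPRa arm, by 1.09 ± 0.25, 1.04 ± 0.25 and 0.73 ± 0.24 in VP64_Ctrl at 6, 12 and 24 h (adjusted p = 0.00152, 0.00184 and 0.0315) and by 0.85 and 1.29 in VP64_A at 6 and 12 h. In the CRISPRko arm its values of -0.58 to -0.28 did not pass. The 24 h call in VP64_Ctrl was lost without replicate 3 at 0 h or replicate 1 or 2 at 24 h (-1.22 to -0.55), and the 6 h call in VP64_A without replicate 1 or 3 at 6 h (-0.93 to -0.79). FASN, fatty acid synthase, fell in VP64_Ctrl at 6 h by 0.78 (adjusted p = 0.017), a call lost without replicate 3 at 0 h or replicate 1 at 6 h (-0.96 to -0.41). LPIN1 fell in VP64_A at 6 h by 0.87 and at 12 h by 0.76, the latter lost without replicate 1 at 12 h (-0.61), and ELOVL6, the elongase of palmitate, passed in none.

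Differences between successive times, added after the data were seen, gave the late changes directly. From 12 to 24 h in H47_Ctrl 6 genes rose (20%, against 4.04% of all genes tested) and 1 fell (3.33% against 4.6%). In H47_KO 7 rose (23.3% against 8.56%) and 1 fell (3.33% against 7.76%). In VP64_Ctrl 7 rose (23.3% against 4.58%) and 1 fell (3.33% against 3.8%), and in VP64_A 4 rose (13.3% against 3.09%) and 0 fell (3.3% of all genes). FADS1 rose in that interval in all 4 groups, by 0.78 ± 0.15, 0.60 ± 0.15, 0.94 ± 0.15 and 0.95 ± 0.15 in H47_Ctrl, H47_KO, VP64_Ctrl and VP64_A, and these calls passed with any 1 library left out. SCD rose by 0.68, 0.57, 1.05 and 0.72 in the same order. Its call was lost in H47_Ctrl without replicate 1 or 2 at 12 h or replicate 2 at 24 h (0.58 to 0.75), in H47_KO without replicate 2 at 12 h or replicate 1 at 24 h (0.40 to 0.71) and in VP64_A without replicate 2 or 3 at 12 h or replicate 3 at 24 h (0.61 to 0.91). MSMO1 rose by 0.68, 0.52, 0.92 and 0.82. Its call was lost in H47_Ctrl without replicate 1 at 12 h (0.59 to 0.76), in H47_KO without replicate 1 or 3 at 12 h or replicate 2 at 24 h (0.41 to 0.65), in VP64_Ctrl without replicate 2 at 12 h or replicate 1 at 24 h (0.73 to 1.11) and in VP64_A without replicate 2 or 3 at 12 h or 2 or 3 at 24 h (0.65 to 1.14). INSIG1 rose by 1.40 ± 0.30, 0.89 ± 0.28 and 1.69 ± 0.23 in the first 3 groups. The H47_KO rise was lost without any of 4 libraries (replicates 1 and 2 at 12 and at 24 h, 0.57 to 1.25). In VP64_A it was at 0.53 and did not pass. The 1 gene that fell from 12 to 24 h in those 3 groups was SQLE, by 0.77, 0.66 and 0.58, the last lost without replicate 2 at 12 h (-0.47) or replicate 1 or 3 at 24 h (-0.55 each). On log2(TPM + 1) the rises from 12 to 24 h were 1, 12, 7 and 1 in the same order of groups (3.33%, 40%, 23.3% and 3.33%, against 1.56%, 11.9%, 4.05% and 1.29% of all genes), with 0 falls in each. On log2(TPM + 0.1) they were 1, 11, 6 and 1, again with 0 falls, and DESeq2 gave 4 rises and 1 fall in VP64_A. Without the 5 libraries of lower share the rises and falls were 7 and 1, 7 and 1, 7 and 1, and 1 and 0, and in VP64_A those of SCD (0.61) and MSMO1 (0.66) no longer passed.

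From 6 to 12 h in H47_Ctrl 0 genes rose (4.28% of all genes did) and 1 fell (3.33% against 4.84%). In H47_KO 0 rose (3.87% of all) and 4 fell (13.3% against 4.91%), and in VP64_Ctrl 0 rose (4.29% of all) and 4 fell (13.3% against 4.95%). In VP64_A 1 rose (3.33% against 3.7%) and 0 fell (4.06% of all). INSIG1 fell in the first 3 groups, by 1.24 ± 0.30, 1.36 ± 0.29 and 1.23 ± 0.24 on the log2 scale (adjusted p = 0.00623, 0.00164 and 0.000587), and in H47_Ctrl the fall was 0.97 on that scale and no longer passed without replicate 3 at 12 h.

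Among 21 other genes of sterol and fatty acid synthesis, uptake and control (of which 20 were tested with CRISPRko and 19 with CRISPRa), 4 rose (20%, against 10.3% of all genes) and 1 fell (5% against 5.6%) in H47_Ctrl at 6 h. There 4 rose (20% against 11.3%) and 2 fell (10% against 8.27%) at 12 h, and 0 rose (6.53% of all) and 2 fell (10% against 3.73%) at 24 h. In VP64_Ctrl 4 rose (21.1% against 16.2%) and 3 fell (15.8% against 12.6%) at 6 h. There 4 of each passed at 12 h (21.1%, against 15.3% and 11.5%), and 1 rose (5.26% against 10.4%) and 2 fell (10.5% against 5.57%) at 24 h. The acyl-CoA synthetase ACSL1 rose by 1.09 and 1.30 in H47_Ctrl at 6 and 12 h, and its relative ACSL4 by 2.42, 2.03 and 1.75 in VP64_Ctrl. INSIG2, the other INSIG protein, rose at 12 h in all 4 groups, by 1.08, 1.13, 0.83 and 1.69 in H47_Ctrl, H47_KO, VP64_Ctrl and VP64_A, and NPC1, which exports cholesterol from lysosomes, rose at 6 h by 0.64, 0.50, 0.98 and 0.57. LBR, the other sterol C-14 reductase, fell in H47_Ctrl by 0.70 and 0.83 at 6 and 12 h. Of 10 genes of sterol export and the liver X receptors, 5 or 6 were tested. At 12 h 1 rose and 1 fell in each of H47_Ctrl, H47_KO and VP64_Ctrl. These were 16.7% each in H47_Ctrl (against 11.3% and 8.27% of all genes) and in H47_KO (against 14.4% and 13%). In VP64_Ctrl they were 20% each (against 15.3% and 11.5%). The gene that rose was ABCA1, the cholesterol exporter, by 1.16, 1.15 and 1.26 in that order. In H47_Ctrl at 6 h 0 rose (10.3% of all) and 1 fell (16.7% against 5.6%).

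Knockout of GLIS3 did not give a call in any of the 30 genes at any time. At 0, 6, 12 and 24 h 0 genes passed, where 0.301%, 0.319%, 0.0821% and 0.21% of all genes tested did, and 7, 4, 2 and 2 had an unadjusted p under 0.05 in edgeR's quasi-likelihood test. DESeq2 called 2 lower at 0 h and 1 higher at 6 h, and limma on log2(TPM + 1) called 0 at each time. Without the 5 libraries of lower share, FDPS (0.55 ± 0.15, adjusted p = 0.0491) and MSMO1 (-0.65 ± 0.17, 0.0405) passed at 0 h and 0 genes at the other times. The median differences were 0.04, 0.18, -0.02 and -0.02. The lowest adjusted p-values were those of SCD at 6 h, where H47_KO libraries were at 71.3, 46.1 and 49.1 CPM and H47_Ctrl libraries at 38, 37.4 and 31.9 CPM (0.64 ± 0.17, adjusted p = 0.0967), and of CYP51A1 and MSMO1 at 0 h (-0.58 and -0.56, both 0.107). STARD4, SQLE and INSIG1 differed by -0.56 to -0.14, -0.08 to 0.02 and -0.40 to 0.24 over the 4 times. For 99 of the 120 gene and time pairs the 95% interval of the difference lay within a 2-fold change in either direction, so that larger effects were outside it. Over both arms the intervals of SREBF1, TM7SF2 and HSD17B7 reached a 2-fold change most often, in 8, 8 and 6 of 8 comparisons. The libraries of both groups did not overlap for 7, 5, 4 and 3 genes, or 23.3%, 16.7%, 13.3% and 10% of the 30, against 17.8%, 14.9%, 15.2% and 13.5% of all genes. With the 4 times averaged, a contrast added after the data were seen, 1 gene was higher in H47_KO (3.33% against 1.98% of all genes) and 0 lower (1.09% of all). It was DHCR7, at 0.39 ± 0.10 (adjusted p = 0.0223). This call was lost without replicate 2 of H47_Ctrl at 0 h, replicate 1 of H47_Ctrl at 12 h, replicate 1 of H47_KO at 6 h or replicate 3 of H47_KO at 12 h (0.34 to 0.44 without single libraries). Without the 5 libraries FADS2 (0.45) and STARD4 (-0.46) passed as well as DHCR7 (0.39). DHCR7 was also higher in VP64_A than in VP64_Ctrl with the 4 times averaged, as given below. Its differences were above 0 at each of the 4 times in both arms. CD68, a leukocyte marker that fibroblasts also express, was at 28.1 to 52.5 CPM in H47_KO and 16.3 to 29.8 CPM in H47_Ctrl, and its part in these values was not tested.

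**Figure D4:**
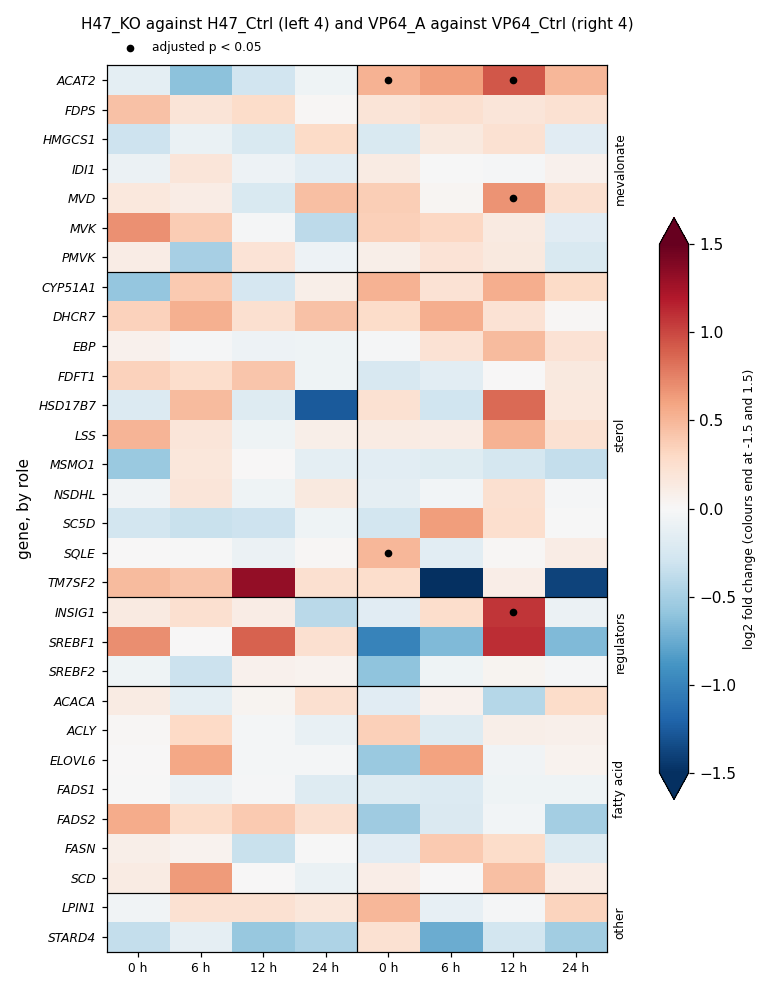
Log2 difference of the 30 genes (rows) between H47_KO and H47_Ctrl and between VP64_A and VP64_Ctrl at 0, 6, 12 and 24 h (columns), with a dot where the adjusted p was under 0.05. No gene passed in the CRISPRko arm, and 5 gene and time pairs passed in the CRISPRa arm.

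In the CRISPRa arm, where GLIS3 was higher in VP64_A, 5 gene and time pairs passed, all higher in VP64_A. ACAT2 and SQLE passed at 0 h (6.67% higher and 0 lower, against 4.29% and 5.12% of all genes tested). ACAT2, INSIG1 and MVD passed at 12 h (10% higher and 0 lower, against 2.37% and 1.94%). At 6 h (3.76% of all) and 24 h (4.13% of all) 0 genes passed, 5 and 3 had an unadjusted p under 0.05 in edgeR's test, and DESeq2 also called 0. Median differences were 0.09, 0.02, 0.16 and 0.03. On log2(TPM + 1) none of the 5 passed, and the counts were 0 higher and 1 lower at 0 h, 0 at 6 and 12 h, and 0 and 1 at 24 h, with all-gene medians of -0.33 at 0 h and -0.25 at 24 h. For 98 of 120 pairs the 95% interval lay within a 2-fold change. The libraries did not overlap for 8, 6, 5 and 5 genes, or 26.7%, 20%, 16.7% and 16.7%, against 26.6%, 18.5%, 16.9% and 23.4% of all genes. Markers of other cell types moved with these groups. KRT14, a keratin of basal epithelium, was at 50.7 to 80.2 CPM in VP64_A at 0, 6 and 12 h and 16.7 to 22.1 CPM at 24 h, against 2.84 to 11.4 CPM in VP64_Ctrl and 0 to 1.15 CPM in the CRISPRko arm. CD68 was at 15.8 to 50.4 CPM in VP64_A and 28.4 to 82 CPM in VP64_Ctrl. Of the other epithelial and leukocyte markers, EPCAM, CD3E and LYZ had 0 counts in all 48 libraries, KRT5 and CDH1 had at most 1 and 2, CD14 at most 8 and PTPRC at most 17. KRT8, also an epithelial keratin, had 21 to 277 counts per library. Both epithelial markers tested in this arm, KRT14 and KRT8, were higher in VP64_A with the 4 times averaged, a contrast added after the data were seen. Of all genes 1005 of 10980 were. The part of KRT14, KRT8 and CD68 in the results of this arm was not tested.

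In CPM ACAT2 differed most steadily. VP64_Ctrl libraries were at 29.9, 34.9 and 30.5 CPM at 0 h, 22.8, 23.5 and 23.8 CPM at 6 h, 12.4, 18.4 and 13.6 CPM at 12 h and 32.5, 31.1 and 24.3 CPM at 24 h. VP64_A libraries were at 37.4, 49.9 and 50.2 CPM, then 27.5, 39.1 and 40.4 CPM, then 27.2, 33.6 and 23.9 CPM, then 40.7, 39.5 and 43 CPM. At each of the 4 times every VP64_A library was above every VP64_Ctrl library in CPM. In TPM at 0 h the groups overlapped, at 51.6 ± 9.63 in VP64_A and 47.5 ± 12.5 (38.8 to 61.8) in VP64_Ctrl (SD, n = 3). At 6, 12 and 24 h the TPM means were 33.1, 27.1 and 37.9 in VP64_A and 20.4, 14.7 and 33.1 in VP64_Ctrl. In edgeR the difference was 0.52 ± 0.17 at 0 h (adjusted p = 0.0455), 0.61 ± 0.19 at 6 h (0.065), 0.94 ± 0.19 at 12 h (0.00188) and 0.50 ± 0.18 at 24 h (0.134). The 0 h call was lost without replicate 2 (0.46) or 3 (0.44) of VP64_A or replicate 1 (0.48) or 3 (0.49) of VP64_Ctrl, and the 12 h call passed with any 1 library left out. Averaged over the 4 times, a contrast added after the data were seen, the difference was 0.64 ± 0.09 (adjusted p = 2.25e-06). In the CRISPRko arm ACAT2 differed by -0.15, -0.61, -0.28 and -0.06 without passing. The gene (chr6:159762045-159779112, plus strand) overlaps SOD2 and TCP1 on the other strand, and with the counting strand not given its reads and theirs cannot be told apart. SOD2, higher than at 0 h by 5.83 to 6.98 in the 12 contrasts, differed between VP64_A and VP64_Ctrl by 0.52, -0.37, -0.14 and 0.34 and TCP1 by 0.43, 0.13, 0.07 and 0.25, and their part in the ACAT2 values was not tested.

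The other calls stood at 1 time each. INSIG1 at 12 h was at 6.91, 11.1 and 7.11 CPM in VP64_Ctrl and 21.5, 16 and 16.9 CPM in VP64_A, a difference of 1.07 ± 0.24 (adjusted p = 0.00434) that passed with any 1 library left out, against -0.17, 0.27 and -0.09 at 0, 6 and 24 h. SQLE at 0 h was at 19.5, 15.2 and 19 CPM in VP64_Ctrl and 27.4, 21.5 and 26.7 CPM in VP64_A (0.50 ± 0.15, adjusted p = 0.0317). It was lost without replicate 1 (0.43) or 3 (0.45) of VP64_A or replicate 2 (0.39) or 3 (0.54) of VP64_Ctrl. At 6, 12 and 24 h SQLE differed by -0.16, 0.01 and 0.11. MVD, which makes isopentenyl diphosphate, was at 24.4, 27 and 24.9 CPM at 0 h, 20.9, 15.9 and 22.6 CPM at 6 h, 18.9, 26.3 and 19 CPM at 12 h and 26.6, 23 and 27 CPM at 24 h in VP64_Ctrl. In VP64_A it was at 25.5, 36.4 and 37.4 CPM, 16.7, 20.7 and 22.5 CPM, 27.6, 31.4 and 43.6 CPM, and 24.8, 37.8 and 29.1 CPM. Its difference passed at 12 h (0.67 ± 0.20, adjusted p = 0.0484) and was lost without replicate 2 (0.74) or 3 (0.47) of VP64_A or replicate 1 (0.59) or 3 (0.60) of VP64_Ctrl. Without replicate 3 of VP64_Ctrl at 0 h, and also without the 5 libraries of lower share, 0 of the 30 genes passed at 0 h, and without the 5 the genes that passed at 12 h were ACAT2, INSIG1 and LSS, with MVD at 0.75 (adjusted p = 0.0634). Averaged over the 4 times 5 genes were higher in VP64_A and 0 lower (16.7% higher, against 9.15% of all genes higher and 9.23% lower). They were ACAT2 and, with smaller differences, CYP51A1 at 0.39, MVD at 0.33, DHCR7 at 0.26 and LSS at 0.25. Of these the call of MVD was lost without replicate 3 of VP64_A at 12 h (0.28 to 0.37 over the 24 omissions), and those of DHCR7 and LSS without any of 8 and 16 of the 24 libraries, of both groups and all times (0.23 to 0.30 and 0.20 to 0.28). Averaged on log2(TPM + 1) 1 gene was higher and 2 lower, and on log2(TPM + 0.1) also 1 and 2. The averaged value of LSS was slightly below 0 on both of these scales.

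**Figure D5:**
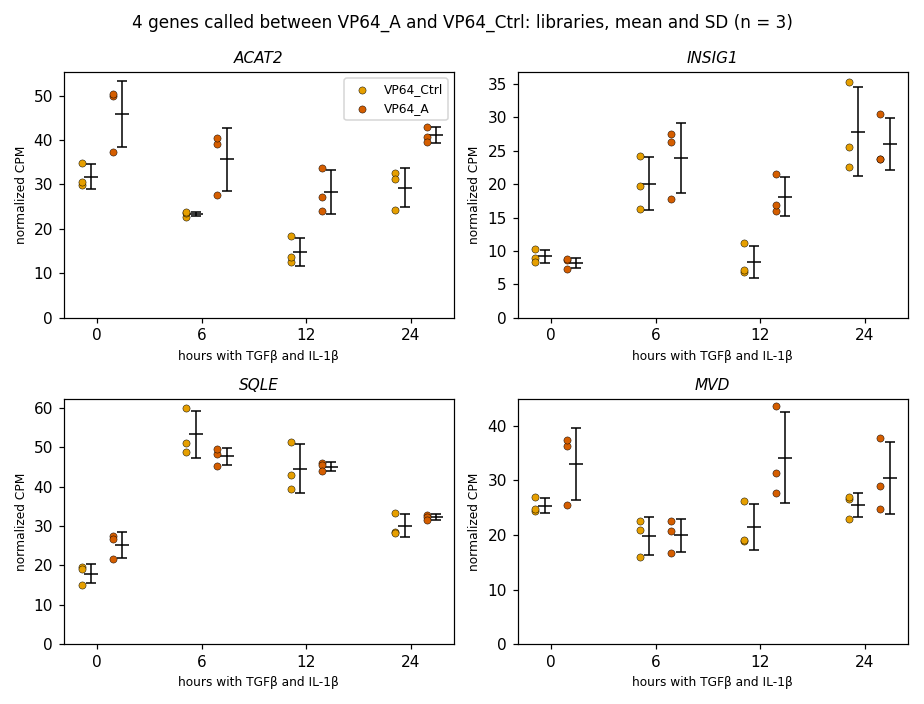
CPM of ACAT2, INSIG1, SQLE and MVD in each library of VP64_Ctrl and VP64_A at 0, 6, 12 and 24 h, with the mean ± SD of 3 libraries. On this scale ACAT2 did not overlap between the groups at any time, and INSIG1 was higher in VP64_A at 12 h. In TPM the ACAT2 libraries overlapped at 0 h.

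Whether the response to the cytokines itself differed between the perturbed and the control cells was tested as an interaction. In the CRISPRko arm 0 genes passed at 6, 12 and 24 h (0.00912%, 0% and 0% of all genes tested), with 3, 2 and 2 at an unadjusted p under 0.05 and a lowest adjusted p of 0.186, 0.752 and 0.836 in edgeR's quasi-likelihood test. In the CRISPRa arm 0 passed (0.0911%, 0.264% and 0.209%), with 6, 4 and 1 unadjusted and a lowest adjusted p of 0.316, 0.109 and 0.675. DESeq2 called 1 gene at 12 h in the CRISPRa arm and 0 in the other 5 contrasts. INSIG1 had the lowest adjusted p at 12 h there, where its change from 0 h was larger in VP64_A by 1.24 on the log2 scale, so the dip seen in VP64_Ctrl and not in VP64_A was not shown to differ beyond the adjusted threshold. The difference of the response between the control cells of both arms, added after the data were seen, also gave 0 of 30 genes at 6, 12 and 24 h (0.437%, 0.355% and 0.51% of all genes), with 4, 1 and 2 at an unadjusted p under 0.05. The smaller rises of SQLE in VP64_A and the falls of DHCR7 and ACACA that passed in 1 arm are therefore values side by side, with no call of the difference itself.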

How the data were processed

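RNA was measured by RNA-seq in 48 libraries, 3 for each of 16 conditions. Per the labels and the study's methods, the authors trimmed reads with Trim Galore, removed ribosomal reads with SortMeRNA, used STAR for alignment to GRCh38, and took gene abundances from Salmon. The authors deposited estimated counts, not normalized between libraries, and TPM, which Salmon scales for length and to one total per library. Tool versions and the counting strand are not given in the sources used here. Salmon divides reads among similar sequences, so FDPS, IDI1, CYP51A1, HSD17B7 and SCD, which have named pseudogenes, are uncertain.

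Estimated counts (6.38% not whole) were rounded. The 24 libraries of an arm, 8 groups, entered one edgeR 4.0.16 fit in R 4.3.3: TMM, filterByExpr (minimum count 10, minimum total 15) and the two-sided quasi-likelihood F test. The filter left 10962 genes (CRISPRko) and 10980 (CRISPRa) for testing, with the 30 genes in both. The Benjamini-Hochberg adjustment ran across every tested gene, the threshold was 0.05, and "rose", "fell", "higher" and "lower" calls mean this. Alternatives were DESeq2 1.42.0, DESeq2's size factors, no filter, a fit of the compared libraries alone, the replicate number as a block, limma 3.58.1 on log2 TPM with a pseudocount of 1 or 0.1, and each library left out in turn. The 5 libraries of lower share were left out together as an alternative added later. TPM was used for levels between genes and CPM on TMM-scaled library sizes for levels between libraries. Replicate pairs differed by more than counting error, their chi-square being 3.8 to 66.6 times its degrees of freedom over 48 pairs. The study describes its in vitro experiments as having independent biological replicates. Nothing in the sources says how the replicates of this RNA-seq were cultured. The p-values therefore measure the spread between these libraries, and how much of it is technical is not known.

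The genes and lists were chosen with earlier results of these data known. Values in every library are given for genes called between perturbed and control cells, for the 6 with the lowest adjusted p against 0 h in H47_Ctrl and the 4 in VP64_Ctrl, and for SREBF1, SREBF2 and INSIG1. Positions are from GENCODE and promoters from RefSeq (GRCh38.p14). Of the other lists, 4 genes are not reported here.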

Additional observations from a re-analysis of the deposited data

How the results depend on the processing

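With DESeq2's size factors in edgeR every count of genes called and every median difference from all genes kept its direction and side. DESeq2 itself called 2 genes at 0 h and 1 at 6 h in H47_KO against H47_Ctrl, 1 in the CRISPRa interaction at 12 h and 2 in VP64_A at 12 against 6 h, where edgeR called 0, 0, 0 and 1. Without a filter on low counts 1 gene passed in H47_KO against H47_Ctrl at 24 h, 3 over the mean of the times, 0 in VP64_A against VP64_Ctrl at 0 h and 1 at 6 h, 1 in the CRISPRa interaction at 12 h, 2 in VP64_A at 12 against 6 h, and 1 each at 6 and 24 h in the difference between the arms. In a fit of the compared libraries alone, 3 genes passed in H47_KO at 24 h and 5 at 24 against 12 h, 0 in VP64_A against VP64_Ctrl at 0 h and 1 at 6 h, and the median of H47_Ctrl at 24 against 12 h, less that of all genes, was 0.21 in place of 0.29. The cause was not tested.

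The replicate numbers did not pair the samples: deviations of same-numbered libraries from their group means had a median correlation of 0.0095 in the CRISPRko arm (-0.194 to 0.16 over 84 pairs) and 0.0080 in the CRISPRa arm (-0.134 to 0.204). With the replicate block, 1 gene in place of 0 passed in VP64_A against VP64_Ctrl at 6 h, and no other count moved by over 1.5 times.

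Without the 5 libraries of lower share, added after the data were seen, 2 genes passed in H47_KO against H47_Ctrl at 0 h and 3 over the mean of the times, 2 in H47_Ctrl and 2 in VP64_A at 12 against 6 h, 0 in VP64_A against VP64_Ctrl at 0 h and 1 in VP64_A at 24 against 12 h. The median less that of all genes was -0.29 in H47_KO at 12 h, 0.24 in VP64_Ctrl at 24 h, 0.16 in the CRISPRa interaction at 12 h and 0.32 in VP64_A at 24 against 12 h.

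The counts moved most on log2(TPM + 1) and on log2(TPM + 0.1), tested with limma. These settings change the scaling, the adjustment for length and the test together, and the part of each was not tested. The counts were 3 in H47_Ctrl at 6 h, 0 at 24 h and 1 at 24 against 12 h, and 0 in H47_KO at 12 against 6 h and 2 at 24 h, under both pseudocounts. In VP64_Ctrl they were 23 and 22 at 6 h, 20 and 19 at 12 h, 3 and 3 at 24 h, and 0 and 1 at 12 against 6 h. In VP64_A they were 4 and 3 at 24 h, 0 and 0 at 12 against 6 h and 1 and 1 at 24 against 12 h, and with the smaller pseudocount 5 at 12 h and, in H47_KO at 12 h, 7. In VP64_A against VP64_Ctrl they were 1 and 1 at 0 h, 0 and 0 at 12 h, 3 and 3 over the mean of the times, and 1 at 24 h with the larger pseudocount, and 0 and 0 genes passed over the mean in H47_KO against H47_Ctrl. Less the median of all genes, the median on log2(TPM + 1) was -0.015 in VP64_A against VP64_Ctrl at 0 h, -0.29 in VP64_Ctrl at 6 h and 0.46 at 24 against 12 h. The values that changed sign were those of ACLY in VP64_Ctrl at 12 h (-0.0086 and -0.0087), LSS in VP64_Ctrl at 24 h (-0.21 and -0.22) and LSS over the mean of the times in VP64_A against VP64_Ctrl (-0.031 and -0.029).

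With each library left out in turn, the genes called in H47_KO numbered 4 to 7 at 24 h, 1 to 4 at 12 against 6 h and 4 to 9 at 24 against 12 h, and in H47_Ctrl 0 to 2 and 4 to 6 over the same steps. They numbered 6 to 11 in VP64_Ctrl at 6 h, 5 to 7 at 24 h, 1 to 3 at 12 against 6 h and 5 to 8 at 24 against 12 h, and in VP64_A 4 to 7 at 24 h, 0 to 2 at 12 against 6 h and 1 to 5 at 24 against 12 h. In VP64_A against VP64_Ctrl they numbered 0 to 2 at 0 h, 0 to 2 at 6 h, 0 to 1 at 24 h and 2 to 6 over the mean of the times, in H47_KO against H47_Ctrl 0 to 1 at 24 h and 0 to 4 over the mean, and 0 to 1 at 24 h in the difference between the arms. The median less that of all genes was -0.29 to -0.10 in H47_KO at 12 h, -0.073 to 0.14 at 24 h and -0.12 to 0.0077 at 12 against 6 h, 0.17 to 0.39 in H47_Ctrl at 24 against 12 h, and 0.12 to 0.24 in H47_KO against H47_Ctrl at 6 h. It was -0.29 to -0.13 in VP64_Ctrl at 6 h, 0.082 to 0.24 at 24 h and 0.40 to 0.47 at 24 against 12 h, and in VP64_A -0.23 to -0.03 at 6 h, -0.074 to 0.054 at 12 h, 0.11 to 0.28 at 24 h, -0.087 to 0.067 at 12 against 6 h and 0.15 to 0.32 at 24 against 12 h. It was 0.012 to 0.11 in VP64_A against VP64_Ctrl at 0 h, -0.0070 to 0.13 in the CRISPRko interaction at 6 h, -0.089 to 0.14 and 0.10 to 0.27 in the CRISPRa interaction at 6 and 12 h, and 0.0033 to 0.16 and -0.18 to -0.03 in the difference between the arms at 6 and 12 h. In 8 perturbation comparisons the 95% interval reached a 2-fold change 3 to 8 times for 7 genes (SREBF1, TM7SF2, HSD17B7, HMGCS1, ELOVL6, MVK and STARD4) and 1 or 2 times for 7 others.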
